A study of Homo sapiens with 6 samples.

Results

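The genes described here encode the protein subunits of the mitochondrial ribosome and the translocases that carry proteins into mitochondria. They were taken by name: probe sets with a single gene symbol that begins with MRPL, MRPS, TIMM or TOMM followed by digits. On the arrays 30 of 7713 genes with such a probe set met this rule, each with 1 probe set: 10 MRPL, 6 MRPS, 10 TIMM and 4 TOMM genes. They were measured in A549, an established human lung adenocarcinoma cell line, on 6 oligonucleotide arrays that carried 8746 probe sets besides controls. On 3 arrays, cisplatin 1 to 3, cells had been exposed for 1 hour to cisplatin at 50 µM, a DNA-crosslinking platinum compound, and 3 control arrays held cells given medium without the drug for the same time. Both groups then spent 10 hours in drug-free medium, and they came, per the series description, from 3 independent experiments in this single line with no genetic change stated.

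Human mitochondria make a small set of respiratory chain subunits on their own ribosome, whose RNAs come from mitochondrial DNA and whose proteins are all encoded in the nucleus. Those proteins, like nearly all others of the organelle, are made in the cytosol and enter through the TOM complex of the outer membrane. The TIM23 complex then takes proteins with a presequence to the matrix, while small TIM chaperones in the intermembrane space escort carrier proteins to the TIM22 complex.

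Among the 30 genes 0 passed the test between cisplatin and control (limma, Benjamini-Hochberg adjusted p under 0.05 over the 6559 tested probe sets), and the lowest adjusted p was 0.578. Over all tested probe sets 19 passed, or 0.29%, with 0.213% higher and 0.0762% lower. At an unadjusted p under 0.05 in limma there were 3 of the 30 genes, against 5.03% of all tested probe sets. MRPL49 and MRPL33 had higher values after cisplatin, where 3.4% of probe sets were higher at this level, and TIMM13 had lower ones, where 1.63% were lower. In 4 genes the 3 cisplatin values lay beyond all 3 control values, as in 11% of tested probe sets. These were MRPL49 and MRPL33 on the higher side (7.42% of probe sets) and TIMM13 and TIMM10 on the lower side (3.57%). With 2 of the 30 on each side, the counts of non-overlapping genes were near the background. The log2 folds ran from -0.42 to 0.37. For 21 of the 30 genes (70%) the 95% interval of the fold lay within a 1.5-fold change in either direction. The share was 66.2% among the other tested genes. These intervals are from the fit of all arrays only and concern probe set values on the log2 scale with the offset. The offset understates the folds of dim probe sets, so the intervals do not bound the change of the transcripts themselves.

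The sequences upstream of the start sites of the 4 genes whose groups did not overlap are shown because these were the genes with all 3 treated values on one side of all 3 controls. Each is the 250 bases before the annotated start, 5′ to 3′ on the gene's strand, from RefSeq on GRCh38.p14, and the table held such a sequence for 28 of the 30 genes. Capitals mark CCGGAAG or its reverse complement, the core that ETS factors such as GABPA recognise. GABPA, also called nuclear respiratory factor 2, is known as a regulator of many nuclear genes for mitochondrial proteins.
MRPL49, chr11:65121933-65122182, plus strand: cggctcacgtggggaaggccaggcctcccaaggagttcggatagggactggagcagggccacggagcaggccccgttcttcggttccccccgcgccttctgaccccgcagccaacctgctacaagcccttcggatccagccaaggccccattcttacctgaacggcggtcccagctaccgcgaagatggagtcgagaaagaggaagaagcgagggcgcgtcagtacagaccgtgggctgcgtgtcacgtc
MRPL33, chr2:27771469-27771718, plus strand: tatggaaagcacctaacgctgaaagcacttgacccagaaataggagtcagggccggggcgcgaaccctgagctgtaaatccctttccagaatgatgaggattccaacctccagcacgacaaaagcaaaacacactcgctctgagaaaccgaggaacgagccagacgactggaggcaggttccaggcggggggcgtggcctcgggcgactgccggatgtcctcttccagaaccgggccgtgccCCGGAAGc
TIMM13, chr19:2427587-2427836, minus strand: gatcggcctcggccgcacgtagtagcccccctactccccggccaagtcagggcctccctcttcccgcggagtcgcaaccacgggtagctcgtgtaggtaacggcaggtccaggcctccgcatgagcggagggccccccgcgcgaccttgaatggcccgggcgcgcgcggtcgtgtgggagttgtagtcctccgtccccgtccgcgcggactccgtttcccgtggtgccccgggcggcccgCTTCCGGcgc
TIMM10, chr11:57530755-57531004, minus strand: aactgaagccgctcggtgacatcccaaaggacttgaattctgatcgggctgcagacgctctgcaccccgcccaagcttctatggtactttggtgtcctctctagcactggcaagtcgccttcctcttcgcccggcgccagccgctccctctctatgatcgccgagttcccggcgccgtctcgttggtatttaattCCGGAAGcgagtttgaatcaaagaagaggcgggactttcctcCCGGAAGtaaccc
The letters CCGGAAG stood on either strand of 9 of the 28 upstream sequences (32.1%), of 13.1% of those of 4762 other tested genes and of 8.82% of all 27305 genes in the table. They were found in MRPL33, which had higher values after cisplatin, and in TIMM13 and TIMM10, which had lower ones, while MRPL49 had no match in these 250 bases. GCGCANGCG, a core of the sites of nuclear respiratory factor 1, stood in 5 of the 28 (17.9%), against 11.3% of other tested genes and 7.02% of all genes. AANATGGCG, a core of YY1 sites, was found in 0 of the 28 and 2.04% of other tested genes, and CCAAT in 25% and 35.6%. The upstream sequences had a median GC content of 63.4%, against 64% for other tested genes. A match of letters is no evidence of binding.

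In the large subunit of the mitochondrial ribosome the 10 measured genes lay on both sides of the controls, with 3 higher and 7 lower in log2 fold and a median of -0.06. MRPL49 encodes a subunit with no bacterial counterpart. Its control intensities were 509.9, 506 and 413 (arrays 1 to 3), and its intensities after cisplatin 607, 611 and 633. All 3 treated values lay above all 3 controls, and the cisplatin values stood closer together than the control values. The means were 476 ± 54.9 and 617 ± 14 (SD, n = 3 each), a 1.29-fold difference, with a log2 fold of 0.37 (SE 0.11, 95% interval 0.12 to 0.62; limma, unadjusted p = 0.0083, adjusted p = 0.578). It was the 1 member with an unadjusted p under 0.05 in limma under all 18 alternative settings, with adjusted p values of 0.133 to 1.

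MRPL33 encodes a small subunit related to a bacterial ribosomal protein. It was measured at 1180.2, 1299 and 1328 on the controls and at 1560 (cisplatin 1), 1557 (cisplatin 2) and 1436 (cisplatin 3) after the drug. Its groups did not overlap either, with cisplatin 3 the closest to the controls. The means were 1269 ± 78.3 and 1517 ± 70.7 (SD, n = 3 each), and the log2 fold was 0.26 (SE 0.08, 95% interval 0.07 to 0.44; limma, unadjusted p = 0.0112, adjusted p = 0.64). MRPL40, another subunit of the large particle, had 318, 399 and 447 on the controls and 438, 443 and 486 after cisplatin. Control 3 lay above cisplatin 1 and 2, so the groups overlapped, and the log2 fold of 0.24 had an interval of -0.07 to 0.55.

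**Figure D1:**
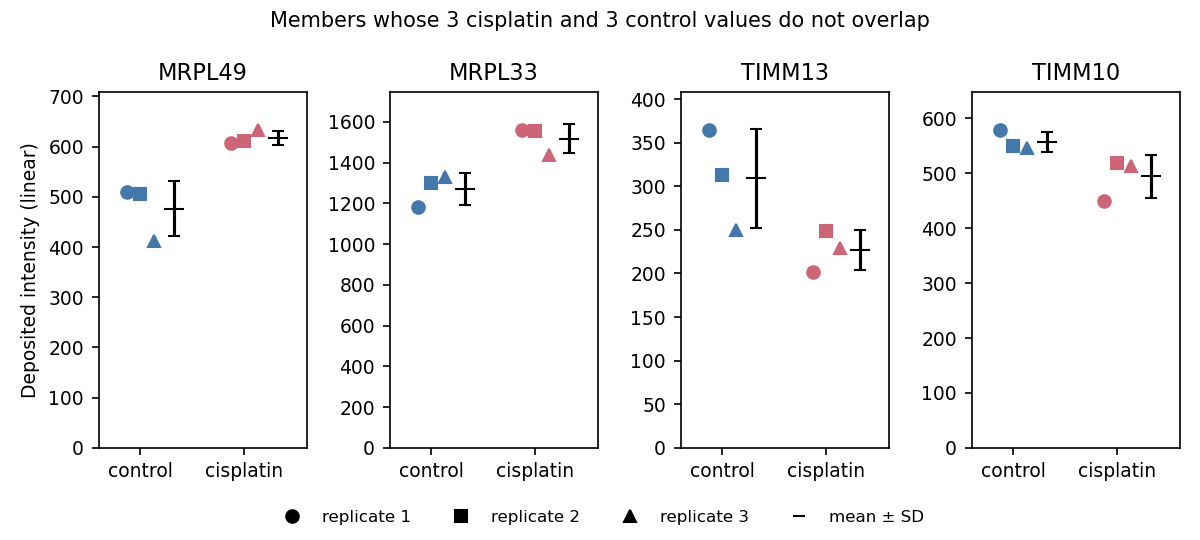
Deposited linear intensity of MRPL49, MRPL33, TIMM13 and TIMM10 on each of the 3 control and 3 cisplatin arrays, each gene on its own axis from 0, with the marker shape giving the replicate number and the bars the mean ± SD of each group. MRPL49 and MRPL33 have all treated values above the controls, and TIMM13 and TIMM10 all below them.

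The other 7 large-subunit genes had negative log2 folds and overlapping groups. MRPL12, whose product forms the stalk that binds translation factors, had 275, 266 and 153 on the controls and 112, 262 and 155 after cisplatin. Both groups thus held high and low arrays, and the log2 fold of -0.41 had an interval of -1.07 to 0.26, wide enough to hold a 2-fold fall as well as no change. It was -0.72 without cisplatin 2 and -0.14 without cisplatin 1. MRPL23, at the exit of the nascent chain, had a log2 fold of -0.29 (interval -0.75 to 0.16), and -0.11 without cisplatin 1. MRPL28 had -0.14 (interval -0.74 to 0.47), and its direction turned with the array left out, to 0.12 without cisplatin 1, while without cisplatin 2 it was -0.43. The remaining 4 were measured more tightly. MRPL3, a core protein of the particle, had 1270.1 ± 77.8 against 1216 ± 15 (SD, n = 3 each) and a log2 fold of -0.06 (interval -0.24 to 0.12). MRPL58, a peptidyl-tRNA hydrolase built into the ribosome that frees stalled chains, had 871 ± 10.1 against 834 ± 52 and a log2 fold of -0.06 (interval -0.26 to 0.14). MRPL46 and MRPL17 had log2 folds of -0.07 and -0.03, which were 0.01 and 0.09 without cisplatin 2.

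The 6 genes of the MRPS series had a median log2 fold of 0.07, with 4 higher and 2 lower. None of them had an unadjusted p under 0.05 in limma, and the lowest adjusted p was 0.999. MRPS12, a protein of the decoding centre, had 271, 148 and 157 on the controls and 119, 170.2 and 146 after cisplatin. Control 1 alone was high, and the log2 fold of -0.34 (interval -0.85 to 0.16) was -0.08 without it. MRPS7, which helps to form the head of the small subunit, had 600.2, 563 and 521 on the controls and 556, 622 and 629 after the drug, with a log2 fold of 0.10 (interval -0.13 to 0.33). MRPS15, a protein that binds the small ribosomal RNA, had 181, 165 and 167 on the controls and 218, 147 and 220.01 after cisplatin. Cisplatin 1 and 3 lay above all controls and cisplatin 2 below them, and the log2 fold was 0.15 (interval -0.22 to 0.53).

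MRPS31 and MRPS35, subunits of the small particle without bacterial counterparts, had log2 folds of 0.12 and 0.03. MRPS30 is named for the small subunit, although its product is now placed in the large one. It had 328, 329 and 322 on the controls and 336, 245 and 336 after cisplatin. The low value was that of cisplatin 2, which set the log2 fold of -0.11 (interval -0.42 to 0.21), while the other treated arrays lay just above the controls.

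Of the small chaperones of the intermembrane space, which work as rings of paired subunits, 6 genes were measured and 5 had negative log2 folds, with a median of -0.17, where 39.3% of the other tested genes were negative. Without cisplatin 2 only TIMM13 and TIMM10 of the 6 were negative, and the median was 0.01. TIMM13, which pairs with TIMM8A to pass TIMM23 and similar proteins on to the inner membrane, had control intensities of 364, 312 and 250.2 (arrays 1 to 3), and 202, 249 and 229 after the drug. The groups did not overlap, but control 3 and cisplatin 2 were nearly equal. The means were 309 ± 57.2 and 227 ± 23.3 (SD, n = 3 each), with a log2 fold of -0.42 (SE 0.16, 95% interval -0.76 to -0.07; limma, unadjusted p = 0.0239, adjusted p = 0.795). The 3′ control probe set of ACTB gave 2.20 times the signal of the 5′ one on control 1, the lowest such ratio. On cisplatin 1 it gave 3.67 times, the highest. This ratio is only an indirect sign of RNA integrity, for which no measure was given. The ratio ran from 2.20 to 2.98 on the controls and from 2.67 to 3.67 after cisplatin, so it partly follows the treatment. Control 1 and cisplatin 1 were also the arrays with the highest and the lowest TIMM13 value, and the cause was not tested. With the log2 of the ratio as a covariate 12.7% of all tested probe sets had an unadjusted p under 0.05 in limma. In that fit the log2 fold of TIMM13 was -0.27 (limma, unadjusted p = 0.0476, adjusted p = 0.394). Without control 1 it was -0.29 (limma, unadjusted p = 0.0784), and without control 3 it was -0.55 (limma, unadjusted p = 0.0056, adjusted p = 0.667). The same covariate also moved other genes. It took MRPL12 from -0.41 to -0.10, MRPS12 from -0.34 to -0.06, MRPL23 from -0.29 to -0.06, TIMM44 from -0.26 to -0.01 and MRPL28 from -0.14 to 0.16. TIMM8A, by contrast, went from -0.42 to -0.76, TIMM17A from -0.04 to -0.23 and TOMM20 from -0.10 to -0.24.

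TIMM10, which with TIMM9 forms the chaperone ring for carrier proteins, had 579, 549.5 and 545 on the controls and 449.5, 519 and 514 after cisplatin. Its groups did not overlap, and the difference was small: 558 ± 18.1 against 494 ± 38.7 (SD, n = 3 each), a log2 fold of -0.17 (interval -0.40 to 0.06; limma, unadjusted p = 0.126). Its partner TIMM9 had 566, 619.9 and 651 on the controls and 587, 427 and 637 after cisplatin, so cisplatin 2 alone lay below the controls. The log2 fold of TIMM9 was -0.17 with all arrays and 0.00 without cisplatin 2. The partners thus had like folds over all 6 arrays, but cisplatin 1 was the lowest array of TIMM10 and cisplatin 2 that of TIMM9. TIMM10B, a relative of TIMM10 that sits in the TIM22 complex, had a log2 fold of 0.06 (interval -0.24 to 0.36).

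TIMM8A, the ring partner of TIMM13, was measured near background and had the largest SE of the 30 genes, 0.38 on the log2 scale. Its intensities were 30.3, 41.1 and 28.5 on the controls and 43.1, 5.21 and 28.4 after cisplatin, where the low value was that of cisplatin 2. The log2 fold of -0.42 had an interval of -1.26 to 0.42 and was 0.07 without that array. The offset sets much of its size, since it was -0.17 with an offset of 50 and -0.76 with an offset of 1. TIMM8B, a paralog of TIMM8A, had 1152, 1109.5 and 1182 on the controls and 1104, 1079 and 1219 after cisplatin, with a log2 fold of -0.02 (interval -0.21 to 0.17).

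Of the inner membrane translocases, TIMM17A, TIMM17B, TIMM22 and TIMM44 had negative log2 folds with overlapping groups. TIMM17A and TIMM17B are alternative partners of TIMM23 in the presequence translocase. TIMM17A had 847, 1134 and 1291 on the controls and 1208, 963 and 977 after cisplatin, with a log2 fold of -0.04 (interval -0.39 to 0.30). TIMM17B had 211 ± 15.7 against 199 ± 13.2 (SD, n = 3 each) and a log2 fold of -0.08 (interval -0.36 to 0.19). TIMM22, which inserts carrier proteins and is measured by a probe set of the _x_at kind that may cross-hybridise, had 59.9 ± 4.67 against 54.9 ± 7.79 and a log2 fold of -0.11. TIMM44, which tethers the import motor to the channel, had 76.9, 62.2 and 68.6 on the controls and 36.9, 93 and 49 after cisplatin. Cisplatin 2 was its highest array and cisplatin 1 and 3 its lowest. The log2 fold of TIMM44 was -0.26 (interval -0.83 to 0.32) with all arrays and -0.02 without cisplatin 1 (limma, unadjusted p = 0.941). Without cisplatin 2 it was -0.57 (limma, unadjusted p = 0.00906, adjusted p = 0.601). Leaving out the highest treated array must lower the fold, and 6.53% of all tested probe sets had an unadjusted p under 0.05 in that fit.

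At the outer membrane 2 genes had positive and 2 negative log2 folds, with a median of -0.02. TOMM40, the pore, had 301, 323 and 231 on the controls and 216, 321 and 212 after cisplatin, with a log2 fold of -0.19 (interval -0.61 to 0.22), which was -0.38 without cisplatin 2. TOMM20, the receptor for presequences, had 744, 1061 and 998 on the controls and 916, 873 and 790.03 after the drug, with a log2 fold of -0.10 (interval -0.41 to 0.20). Without control 1, its lowest array, the fold of TOMM20 was -0.26 (limma, unadjusted p = 0.0281, adjusted p = 0.756). Without control 2, its highest, the fold was -0.01 (limma, unadjusted p = 0.965). TOMM22, the central receptor, had 176 ± 9.91 against 184 ± 8.95 (SD, n = 3 each) and a log2 fold of 0.06 (interval -0.21 to 0.33). TOMM34, a cytosolic co-chaperone that carries the family name without being part of the pore, had 214 ± 11.2 against 237 ± 25.3 and a log2 fold of 0.13 (interval -0.15 to 0.42).

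**Figure D2:**
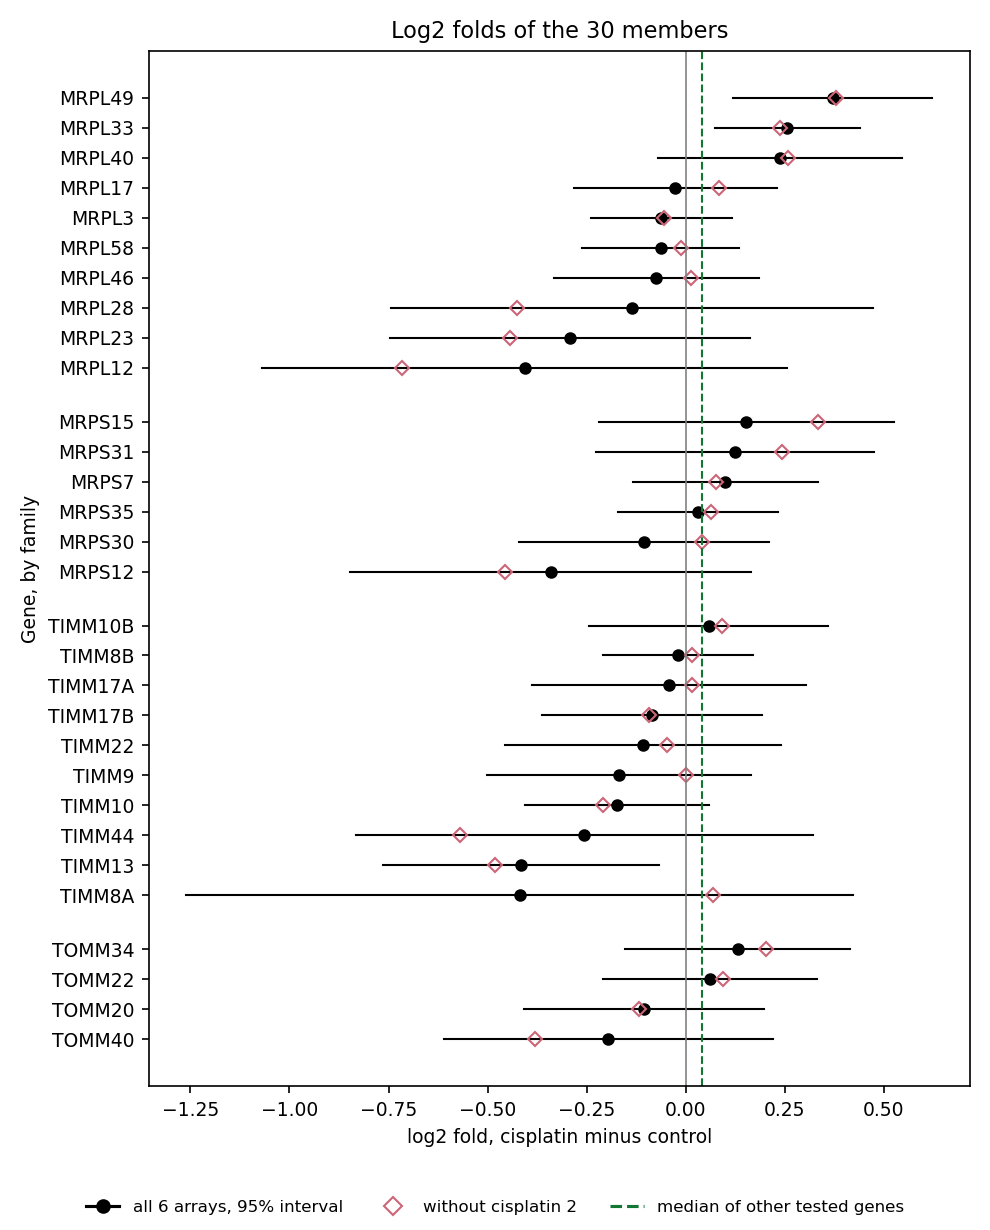
Log2 fold (cisplatin minus control) of each of the 30 genes by family, with black points and 95% intervals from limma on all 6 arrays and open diamonds for the fit without cisplatin 2; the dashed line is the median of the other tested genes, 0.04. The intervals of MRPL49, MRPL33 and TIMM13 leave out 0, and the diamonds of MRPL12, MRPL28, TIMM44 and TIMM8A lie farthest from their points.

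Over all 30 genes the median log2 fold was -0.07, where the 5786 other tested genes had 0.04. Lower values were found in 20 of the 30 (66.7%) and in 39.3% of the other genes. The import genes had a median of -0.11 with 11 of 14 lower, and the ribosomal genes -0.04 with 9 of 16 lower. The tilt in the median and in the count of lower values depended on the array cisplatin 2. Single genes did not all follow. At an unadjusted p under 0.05 in limma 2 were higher and 1 lower with all arrays (5.03% of all tested probe sets in either direction). The counts were 3 higher and 4 lower (6.53%) without cisplatin 2. Without it 13 of the 30 had lower values, against 42.2% of the other genes, and the medians were 0.01 and 0.03; without control 1 and cisplatin 2 together 16 of the 30 were lower, against 49.2%, and the medians were 0.00 in both. The median of the 30 minus that of the other genes was -0.11 in log2 with the arrays as deposited and also with arrays centred on their medians, -0.07 with quantile normalization and -0.02 without cisplatin 2. Counts below 0 shift with any scaling of whole arrays: 22 of the 30 and 55.1% of the other genes were lower with centred arrays, and 21 of the 30 and 49.9% with quantile normalization.

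**Figure D3:**
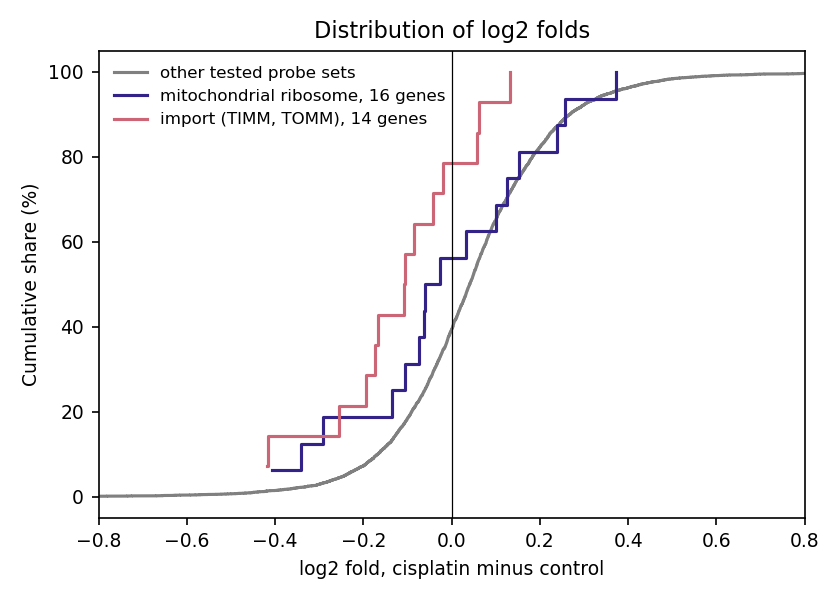
Cumulative share (%) of log2 folds (cisplatin minus control, all 6 arrays) for 16 genes of the mitochondrial ribosome, 14 import genes and the other tested probe sets. The import genes lie to the left of the other probe sets, with 11 of 14 below 0, and the ribosomal genes cross the curve of the other probe sets on the right.

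The median within-group SD of the 30 genes was 0.156 on the log2 scale, against 0.192 for the other tested genes. Their lowest array was cisplatin 2 in 11 of the 30, where 16.7% of all tested probe sets had their lowest value on it, and cisplatin 3 was the highest in 10, against 13.1%. Not all genes went the same way on cisplatin 2. MRPL12, MRPL23, MRPL28 and TOMM40, picked after their values were seen, had control 1, control 2 and cisplatin 2 as their 3 highest arrays, an order found in 8.61% of all tested probe sets. TIMM44 was also high on cisplatin 2, whereas TIMM8A, TIMM9, MRPS30 and MRPL17 were low on it.

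**Figure D4:**
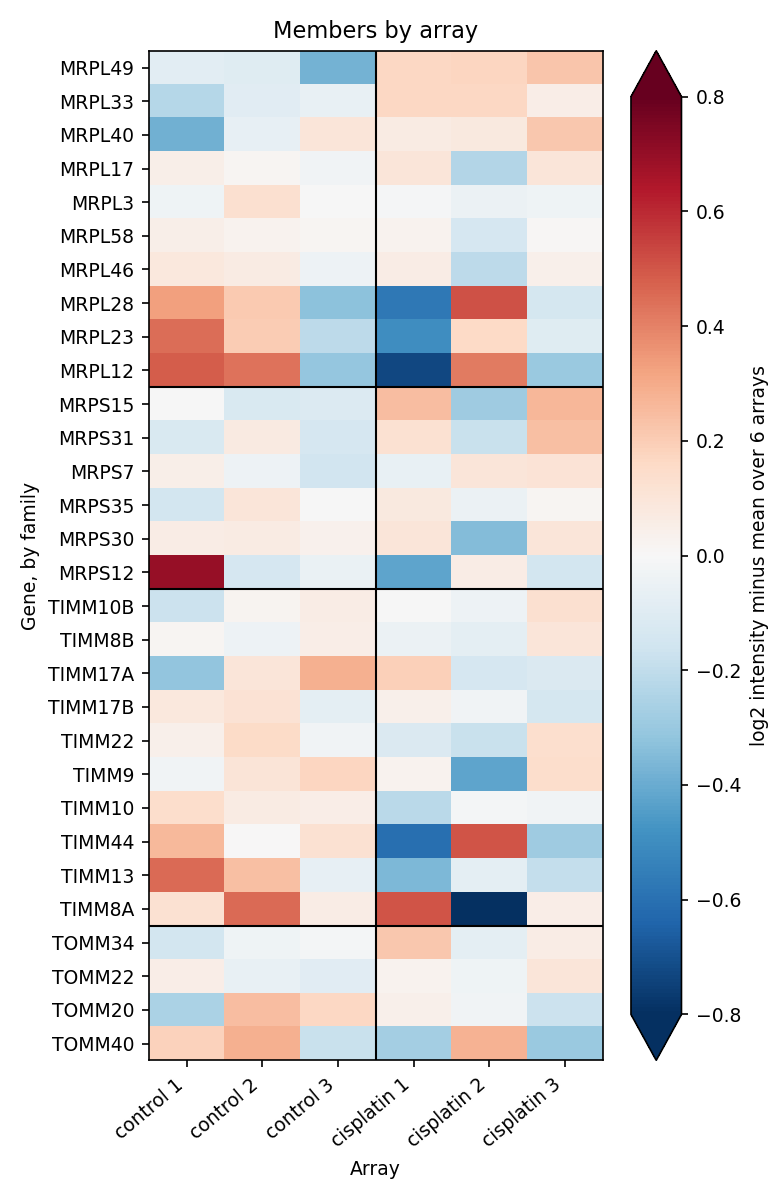
Log2 intensity of the 30 genes on each array minus the gene's mean over the 6 arrays, in rows by family and in columns by array, with the line between control 3 and cisplatin 1 parting the groups; colours saturate at the ends of the scale. MRPL12, MRPL28 and TIMM44 are high on cisplatin 2 and low on cisplatin 1, and TIMM8A, TIMM9 and MRPS30 are low on cisplatin 2.

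The other genes of the pathway, from lists chosen for their function, gave 0 calls in limma over 35 tested genes. Of the ribosomal subunits with other names only DAP3, a GTP-binding protein of the small subunit, was tested, at a log2 fold of 0.09. The 7 tested factors of mitochondrial translation and ribosome assembly had a median of 0.01 and 0 unadjusted p values under 0.05, with log2 folds of 0.16 for the ribosomal RNA methyltransferase MRM2 and -0.18 for the release factor MTRF1. All 3 tested mitochondrial tRNA synthetases had negative folds. FARS2, which charges the phenylalanine tRNA, had 85, 70.6 and 55.8 on the controls and 41.4, 47.5 and 57.4 after cisplatin, with slightly overlapping groups and a log2 fold of -0.43 (limma, unadjusted p = 0.04, adjusted p = 0.919), and WARS2, which charges the tryptophan tRNA, had -0.28.

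A further list held other import genes together with mitochondrial chaperones and protease subunits. Among its 12 tested genes the median was 0.00, 6 were higher and 6 lower, and 0 had an unadjusted p under 0.05 in limma. The lowest unadjusted p values belonged to the mitochondrial HSP90 chaperone TRAP1 (log2 fold -0.15) and the protease subunit CLPX (0.18). HSPA9, the motor chaperone of import, had -0.05, and HSPD1 and HSPE1, the folding chamber and its lid, had -0.02 and 0.02. The 12 tested genes of mitochondrial DNA transcription and its nuclear regulators had a median of 0.01 and 0 unadjusted p values under 0.05. POLG, the mitochondrial DNA polymerase, had 0.22 and POLRMT, the RNA polymerase, had -0.17. TFAM, which packages mitochondrial DNA, had 0.19, and the regulators NRF1 and GABPA had -0.08 and 0.10. GABPA was measured near background, with a control mean of 28.5 and an interval of -0.38 to 0.59.

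Across the series the median intensity of the arrays lay between 57.2 and 67.2, with cisplatin 2 the highest, and the ACTB 3′/5′ ratio ran from 2.20 to 2.98 on the controls and from 2.67 to 3.67 after cisplatin. A principal component analysis of the tested probe sets set control 1 and cisplatin 2 apart along its first axis. Of the epithelial markers KRT18, KRT8 and KRT7 had mean intensities of 1949.8 to 5809.6 and KRT19 131 to 143, while CDH1 and EPCAM had 32.7 to 37.3, a size that need not show expression. The 13 measured markers of stromal, endothelial, muscle and blood cells, which an A549 culture should lack, had means of -0.60 to 259, the highest being ACTA2, and LUM, PTPRC, VWF, CDH5 and CD79A fell below the filter on dim probe sets. Their summed intensity was 629 to 680.03 on the controls and 710.3 to 833 after cisplatin. Within it ACTA2 had the largest change, with means of 184 on the controls and 259 after cisplatin. Of the other markers COL1A1 and CD14 had lower means after cisplatin and the rest higher ones. The part of this sum in the results was not tested. Precision is limited by the number of arrays, and fewer cells and less RNA per cell cannot be told apart in such samples.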

How the data were processed

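The authors deposited probe set intensities on a linear scale, from -512.3 to 9153; 1.37% were at or below 0. Per the labels' protocols the target was biotin-labelled from oligo-dT-primed cDNA; summarisation software and array scaling: not given in the sources used here. Values at or below 0 were set to 0, an offset of 11.8 (the 10th percentile of positive values) was added and log2 taken. The 75th percentiles spanned 0.15 (log2), under the limit of 0.3, so no scaling was applied. Without the 47 control probe sets, 6559 of 8746 were tested, those whose average log2 reached the 25th percentile; all 30 members passed. Gene symbols came from the platform's annotation (7840 probe sets with 1 symbol, 388 with several, 518 with none), and a gene's brightest tested probe set stood for it.

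Groups were compared with limma 3.58.1 (R 4.3.3), two-sided, using lmFit and trended eBayes, with Benjamini-Hochberg adjustment at 0.05 over all tested probe sets and 4 residual and 5.54 prior degrees of freedom. Fold differences are from the log2 scale with the offset, which understates those of dim probe sets. An exact test of 3 against 3 arrays cannot go below 0.1 and was not used. P-values measure the spread between these arrays; no label says which of them share an experiment. The limma step was tested on simulated data. Members and lists were chosen with earlier results of these data known. In each family the 3 genes with the lowest unadjusted p, the translocase core and receptors and the small TIM chaperones were named with their values by rule; in each pathway list the 2 with the lowest unadjusted p were, and the other genes named were added after their values were seen. Alternatives covered scaling, offset, filter, trend, replicate block, the 3′/5′ covariate, array weights, averaging of probe sets and left-out arrays. Figures used matplotlib 3.10.9.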

Additional observations from a re-analysis of the deposited data

How the results depend on the processing

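Under all 18 alternatives 0 of the 30 genes passed in limma, with the lowest adjusted p of any member between 0.133 and 1. The count with an unadjusted p under 0.05 was 3 and became 6 with the 3′/5′ covariate (12.7% of all probe sets), 6 with array weights (10.3%) and 6 without control 1 and cisplatin 2 together (7.18%); leaving out each array in turn gave 2 to 7, with 6 without control 3 (4.25%) and 7 without cisplatin 2 (6.53%). The cause was not tested. Of the 30 genes 8 had positive and 12 negative log2 folds under every setting, and 10 changed sign in at least 1. The filter, trend, replicate block and probe set averaging settings could not change a member's fold. The other settings reused the same arrays or part of them, and the share over all tested genes was not taken. Some folds of constant sign came close to none, as with 0.002 for TOMM22 and -0.002 for MRPL58. MRPL33 had an unadjusted p under 0.05 in 15 and TIMM13 in 13 of the 18. The median of the members lay between -0.13 and 0.01 and was positive without cisplatin 2. With the filter at the 50th percentile TIMM8A and TIMM22 were not tested. With the replicate number as a block (replicate block) the count at an unadjusted p under 0.05 was 2, 0 members passed and 5 probe sets passed in all; arrays of equal number deviated from their group means with correlations of -0.56, -0.31 and -0.12, and 0 of 6 arrays were most like that of their own number. Signal over background limits TIMM8A most, at 5.21 on 1 array.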

Other observations

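Probe sets that the platform pairs with several symbols were left out of the 30 genes, and their values are given here without a comparison. The probe set shared by C4orf46 and TOMM7, a small subunit of the outer membrane translocase, had intensities of 1406, 1528 and 1526 on the controls and 1646, 1438 and 1756 after cisplatin. The probe set shared by TIMM23, the channel of the presequence translocase, and TIMM23B had 476, 425 and 380.4 on the controls and 398, 399.9 and 452 after cisplatin. The groups overlapped in both.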
